A study of Mus musculus with 7 samples.

Results

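The genes described here are 38 mouse genes of the 2-cell-like program other than the Zscan4 genes, out of 54838 genes in the count table. They were chosen by symbol, with earlier results of these libraries known, as genes that are on in the 2-cell embryo and in rare cells of stem cell cultures, and all 38 symbols were found in the table. The libraries were made from 3 M colonies, 3 GC colonies and 1 culture of embryonic stem cells (ESC). M and GC colonies are induced pluripotent stem cells (iPSCs) reprogrammed by means of doxycycline-driven genes from splenic germinal center (GC) B cells of male mice immunized with SRBC for 9 days. The B cells were sorted as B220+ CD38- Fas+, for M colonies with a Myc-GFP reporter as a further gate, which marks cells that received help from T follicular helper cells, and for GC colonies in bulk. M is not spelled out in the titles and is taken as the Myc-GFP source, the sole alternative to bulk cells in the design text. All 6 colonies had 6 days with cytokines on embryonic fibroblast feeders, 10 days with doxycycline and 4 days without it, and each is a clone picked by hand, passaged once on gelatin and pre-plated for 45 min against feeders. The ESC culture was the line V6.5, and all cells grew with serum and LIF, which maintains mouse stem cells. Strain, donor of each colony and identity of the reprogramming genes are not in the labels, so p-values measure only how these colonies spread, and an effect of the donor cannot be told apart from one of the sorted population.

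In mouse embryos the genome is first switched on at the 2-cell stage, when the transcription factor Dux and the endogenous retrovirus MERVL turn on a burst of genes that are silenced again soon after. A small and changing fraction of cells in ESC and iPSC cultures re-enters a state with the same RNAs, known as 2-cell-like. Many genes of this program are young, rodent-specific copies that sit side by side on a chromosome, and their levels in a bulk culture are read as a measure of the program as a whole. In such bulk libraries, fewer 2-cell-like cells and less RNA per 2-cell-like cell cannot be told apart.

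By sequence the members fell into 5 families and 7 single genes (blastn between the longest GENCODE M21 transcripts). The 10 genes on chromosome 12 (Gm8300, Gm4027, Gm21319, Gm21936, BB287469, Gm2016, Gm2022, Gm2075, Gm5662 and Gm5039) were 87.0% to 99.8% identical to each other and 86.0% to 94.9% identical to Eif1a, which encodes a translation initiation factor. The 8 Tcstv genes on chromosome 13 (Tcstv1, Tcstv3, AF067061, B020031M17Rik, Gm20767, Gm21761, Gm21818 and BC147527), named for transcripts confined to the 2-cell embryo, were 84.4% to 98.4% identical. The 5 Usp17l genes on chromosome 7 (Usp17la to Usp17le), which encode deubiquitinating enzymes, were 89.6% to 97.8% identical. The Tdpoz genes on chromosome 3 (Tdpoz3 and Tdpoz4), which encode proteins with a TRAF-like and a POZ domain, were 78.3% identical, and the 6 Pramel genes (Pramel6, Pramel7, B020004J07Rik, Gm12794, AA792892 and BC061212), which encode leucine-rich repeat proteins, were 64.0% to 81.0% identical where they aligned. The single genes were Zfp352, Tmem92, Duxf3, Sp110, Gm4340, Arg2 and Calcoco2. Of the 38 transcripts, 11 shared no stretch of 150 bases, the read length, with a transcript of another gene, and 13 shared over 25% of such stretches. Counts of single genes among those 13 are uncertain, because reads could be split between copies.

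Start regions are shown for 8 members because stretches of them recur between members, in the first 6 between genes on different chromosomes and in the last 2 within the Eif1a-like genes of chromosome 12. RefSeq promoters (GRCm38.p6, 250 bases before to 50 after the start, on the gene's strand, 5′ to 3′) were available for 20 of the 38 members. In the first 6 sequences the capitals mark CTGGAG followed after 4 or 5 bases by TATAAG, and in the last 2 they mark the longest stretch that both share with BB287469.
Zfp352 (chr4:90218570-90218869, plus strand): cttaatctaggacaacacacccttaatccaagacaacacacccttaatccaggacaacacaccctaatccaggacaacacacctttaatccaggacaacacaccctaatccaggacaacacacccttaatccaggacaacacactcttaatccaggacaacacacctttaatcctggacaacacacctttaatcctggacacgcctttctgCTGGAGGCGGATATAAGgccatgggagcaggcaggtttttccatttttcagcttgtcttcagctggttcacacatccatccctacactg
Sp110 (chr1:85603842-85604141, minus strand): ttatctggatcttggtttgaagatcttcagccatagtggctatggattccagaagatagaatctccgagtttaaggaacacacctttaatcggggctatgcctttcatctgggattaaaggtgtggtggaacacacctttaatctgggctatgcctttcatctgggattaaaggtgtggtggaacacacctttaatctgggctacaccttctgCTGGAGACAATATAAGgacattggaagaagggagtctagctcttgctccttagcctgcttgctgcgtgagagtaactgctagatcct
Gm4340 (chr10:104193792-104194091, plus strand): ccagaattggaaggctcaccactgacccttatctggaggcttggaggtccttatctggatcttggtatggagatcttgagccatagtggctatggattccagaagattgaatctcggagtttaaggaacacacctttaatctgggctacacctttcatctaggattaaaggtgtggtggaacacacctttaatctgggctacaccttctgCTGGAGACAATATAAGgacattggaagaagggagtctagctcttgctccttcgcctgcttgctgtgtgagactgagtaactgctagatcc
B020004J07Rik (chr4:101843973-101844272, minus strand): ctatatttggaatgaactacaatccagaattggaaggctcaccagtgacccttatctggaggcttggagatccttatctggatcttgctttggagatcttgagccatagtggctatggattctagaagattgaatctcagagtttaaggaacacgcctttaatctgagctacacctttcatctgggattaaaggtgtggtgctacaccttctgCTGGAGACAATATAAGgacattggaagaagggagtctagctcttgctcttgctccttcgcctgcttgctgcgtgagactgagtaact
AF067061 (chr13:120262845-120263144, plus strand): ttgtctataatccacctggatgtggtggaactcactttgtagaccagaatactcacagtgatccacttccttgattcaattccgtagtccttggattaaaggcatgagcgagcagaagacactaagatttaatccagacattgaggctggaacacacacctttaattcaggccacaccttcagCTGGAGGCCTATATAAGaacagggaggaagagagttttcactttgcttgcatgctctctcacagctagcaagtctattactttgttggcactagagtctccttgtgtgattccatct
Gm21761 (chr13:119913419-119913718, minus strand): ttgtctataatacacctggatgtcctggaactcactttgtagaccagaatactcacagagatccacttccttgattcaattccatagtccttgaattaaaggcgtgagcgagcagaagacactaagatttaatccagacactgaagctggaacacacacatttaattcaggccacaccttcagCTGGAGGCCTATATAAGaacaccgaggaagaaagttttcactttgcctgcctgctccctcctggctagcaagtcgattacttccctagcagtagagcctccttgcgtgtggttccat
Gm4027 (chr12:87618659-87618958, plus strand): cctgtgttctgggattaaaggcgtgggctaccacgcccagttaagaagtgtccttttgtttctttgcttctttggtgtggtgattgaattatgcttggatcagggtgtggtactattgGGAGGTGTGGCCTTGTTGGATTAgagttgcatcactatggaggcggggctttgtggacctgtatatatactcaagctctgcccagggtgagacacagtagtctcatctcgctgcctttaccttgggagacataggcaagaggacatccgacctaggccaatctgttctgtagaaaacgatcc
Gm21319 (chr12:87775706-87776005, minus strand): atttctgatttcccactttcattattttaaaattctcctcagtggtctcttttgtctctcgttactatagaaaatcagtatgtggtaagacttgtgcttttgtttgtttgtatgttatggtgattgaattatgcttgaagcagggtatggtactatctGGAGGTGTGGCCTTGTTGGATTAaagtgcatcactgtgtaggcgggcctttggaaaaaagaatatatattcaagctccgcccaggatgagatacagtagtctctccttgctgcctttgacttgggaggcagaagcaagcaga
The RefSeq start lies 5074 bases upstream of the GENCODE M21 gene start for Sp110 and 15804 bases downstream of it, inside the gene, for Gm21761; for the other 6 the starts lie at most 40 bases apart.

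The pattern CTGGAGNNNNTATAAG or CTGGAGNNNNNTATAAG, searched on both strands, stood in 6 of the 20 members with a promoter and in 35 of all 32851 RefSeq promoters (0.107%). It was chosen after the sequences were read, and the 6 promoters are not independent of each other. AF067061 and Gm21761, both Tcstv genes, were 90.3% identical over 300 bases. Gm4340 on chromosome 10 was 77.9% identical to Sp110 on chromosome 1 over 303 aligned positions and 87.9% identical to B020004J07Rik on chromosome 4 over 297. Zfp352 aligned to Gm4340 and to Sp110 over 58 bases only, around the capitals. The stretch GGAGGTGTGGCCTTGTTGGATTA stood in 3 promoters of all (0.00913%), those of the Eif1a-like members Gm4027, BB287469 and Gm21319. A match of letters is a description of the window and no evidence of binding.

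The libraries held between 31139508 counts, in ESC, and 35728921, in GC colony 1, and a count of 0 allows up to 3 counts, 0.0840 to 0.0963 CPM (counts scaled to library size) by library, for counting error only. Levels below are CPM scaled with TMM factors over all 7 libraries, and log2 changes come from edgeR's quasi-likelihood fit. The cultures carried pluripotency RNAs, with Pou5f1 (Oct4) at 478 to 502 CPM in M colonies, 372 to 378 CPM in GC colonies and 660.4 CPM in ESC. Of 13 pluripotency markers, 2 were called higher in M than in GC colonies (Pou5f1 and Klf4) and 0 lower (1 lower with DESeq2 and with limma-voom), and 10 were called lower in the colonies than in ESC. The source cells' B cell markers summed to 21.1 to 24.1 CPM in M colonies, 31.5 to 33.9 CPM in GC colonies and 34.6 CPM in ESC, over 10 genes, with Ms4a1 (CD20) at 0 in 6 of 7 libraries. One of them, Cd37, a tetraspanin, was called lower in M colonies, with 7.24, 8.65 and 6.91 CPM there, 15.3, 14.1 and 14.2 CPM in GC colonies and 18.9 CPM in ESC (edgeR adjusted p = 0.00164). Fibroblast markers, for leftover feeders, summed to 2589 to 3061 CPM in M colonies, 2503 to 3005 CPM in GC colonies and 2290.3 CPM in ESC, mostly from Fn1. Of 19 tested, 0 were called between M and GC colonies by edgeR or limma-voom and 1 by DESeq2 (2 with an unadjusted p under 0.05 in edgeR), and 9 were called higher in the colonies than in ESC. The part of these markers in the members' levels was not tested. M colonies 2 and 3 stood apart by having 24 and 14 counts over all Y-linked protein-coding genes, against 7791 in M colony 1, 9443 to 13008 in GC colonies and 5505 in ESC. The label gives male donors. Loss of the Y chromosome and another origin of these 2 libraries cannot be told apart here, and neither was tested. Values without both libraries are given with the results.

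M colonies held less RNA of nearly all members than GC colonies, and ESC held less still. The 38 members summed to 287, 410 and 337 CPM in M colonies 1 to 3, 655, 703 and 653 CPM in GC colonies 1 to 3, and 134 CPM in ESC. The colony groups did not overlap, and ESC lay below both. M colonies averaged 345 ± 62 CPM and GC colonies 671 ± 28 CPM (SD, n = 3 each), so that the M mean was 0.514 of the GC mean and 2.58 times the ESC value. Calcoco2, made by many cell types, gave 17.02 CPM of the ESC sum. Without Arg2, Calcoco2 and the Pramel genes, the other 30 members summed to 109 CPM in ESC. Their M mean was 0.502 of the GC mean and 2.87 times the ESC value. Of the 38 genes, 34 had all 3 M colonies below all 3 GC colonies, against 12.0% of all genes tested. In 33 the ESC library lay below all 6 colonies, against 25.7% of all genes, and in 32 the order was ESC, then every M colony, then every GC colony, against 2.84% of all genes.

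**Figure D1:**
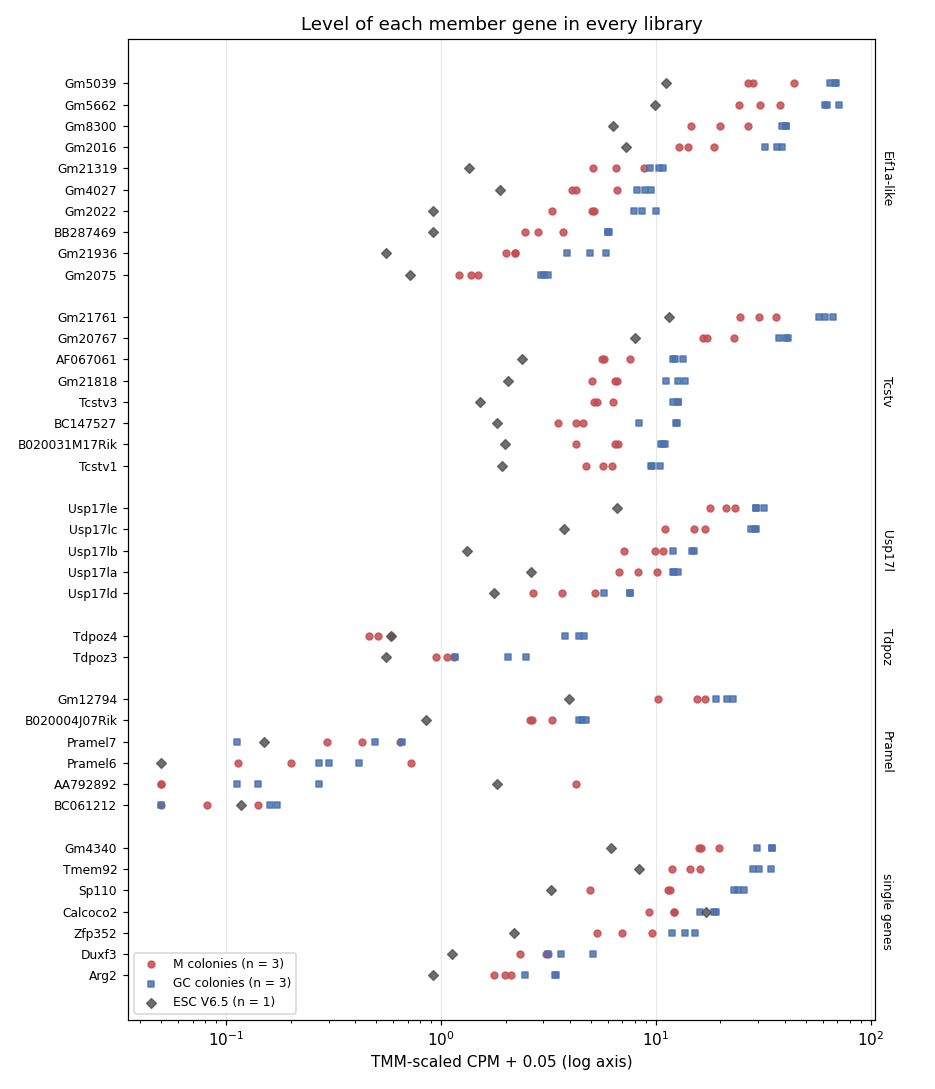
Level of each of the 38 genes in every library, in TMM-scaled CPM plus 0.05 on a log axis, by family from top to bottom; red circles are M colonies, blue squares GC colonies (3 each) and grey diamonds the single ESC library. In most rows the diamond lies left of the circles and the circles left of the squares; Calcoco2, AA792892, Pramel7, BC061212 and Tdpoz4 depart from this for ESC.

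In the comparison of M with GC colonies, 35 of the 38 members passed the filter on low counts. Their log2 changes had a median of -0.97, against 0.0027 over all genes tested, and 34 of 35 were negative. At an edgeR adjusted p under 0.05, 25 were called lower, 0 higher and 10 neither, where 3.97% of all 18166 genes were called, 2.27% lower and 1.70% higher. The members were proposed with this contrast known, so that these counts describe them and are no test. In 27 of the 35 the log2 change lay between -1.6 and -0.6. The mean level of these 27 in GC colonies ran from 1.86 CPM (Tdpoz3) to 67.3 CPM (Gm5039). The 25 calls fell to 15 without GC colony 2, and 15 of the 25 stayed called whichever colony was left out (Tcstv3, AF067061, Gm20767, Gm21761, Gm21818, BC147527, Gm8300, Gm5662, Gm2016, Gm5039, Usp17lc, Tdpoz4, Sp110, Gm4340 and Tmem92).

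Against ESC, with 1 library there and its spread taken from the colonies, 37 members passed the filter. Of these, 32 were called higher in the 6 colonies, 0 lower and 5 neither, where 8.76% of all 20502 genes were called higher and 7.56% lower, and the median log2 change was 1.97 against 0.015 over all genes. The 5 without a call were Tdpoz3, Calcoco2, Pramel6, Pramel7 and AA792892. Taken by source, 28 members were higher and 1 was lower in M colonies than in ESC (8.84% and 7.37% of all genes), with a median log2 change of 1.56. In GC colonies 33 were higher than in ESC and 0 lower (7.53% and 5.51% of all genes), with a median of 2.44. The M, GC and pooled comparisons share the ESC library, so that its level enters all of them.

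**Figure D2:**
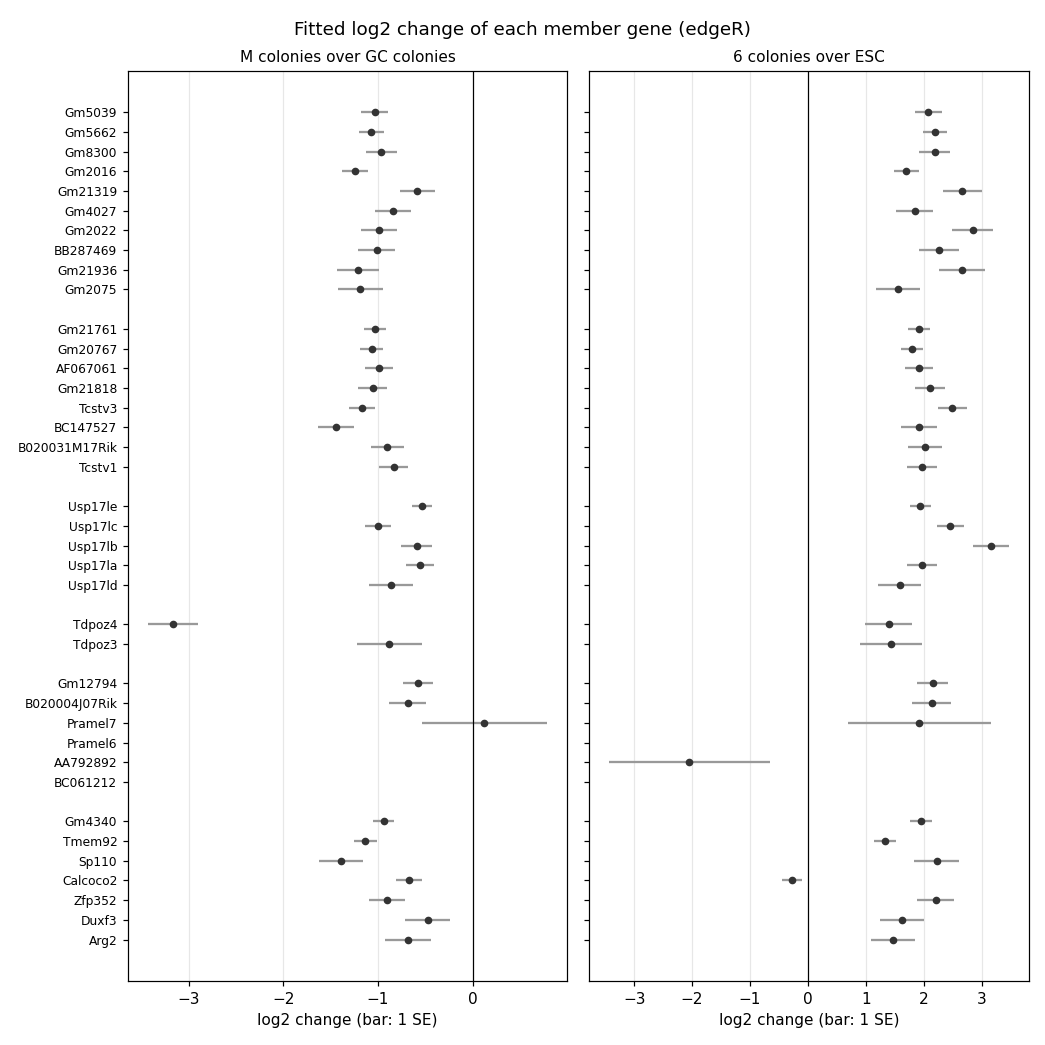
Fitted log2 change of each member with 1 SE, for M over GC colonies (left) and for the 6 colonies over ESC (right), in the same row order as the plot of levels. Nearly all points lie left of 0 in the first panel and right of 0 in the second; Tdpoz4 at -3.16 is the farthest from the others. Members that did not pass the low-count filter have no point, nor does Pramel6 against ESC, where its ESC count was 0.

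The largest share of these reads came from the Eif1a-like genes on chromosome 12, between positions 87514316 and 88324026. As a family they summed to 98.1, 154 and 113 CPM in M colonies, 241, 259 and 248 CPM in GC colonies and 40.5 CPM in ESC. The 3 groups did not overlap, and M colony 2 was the M colony nearest to the GC colonies. With the family counted as 1 row the log2 change was -1.04 ± 0.13 (SE) for M over GC colonies and 2.11 ± 0.19 for the colonies over ESC. Of the 10 genes, 9 were called lower in M than in GC colonies, and all 10 were higher in the colonies than in ESC.

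Gm5039 (ENSMUSG00000093847, chromosome 12 from 88320122 to 88324026, minus strand) was the most abundant member in M and in GC colonies. It had 26.7, 43.7 and 28.2 CPM in M colonies, 64.9, 68.3 and 68.8 CPM in GC colonies and 11.2 CPM in ESC, a log2 change of -1.04 ± 0.15 (SE) for M over GC colonies. Its transcript shares only 0.996% of its 150-base stretches, letter for letter, with other genes. With mismatches allowed it was 94.3% identical to Gm4027 and to BB287469 over 1853 aligned bases. How far reads from copies enter this level was not tested. Gm2016 had the largest change of the family, with 14.0, 18.7 and 12.8 CPM in M colonies, 32.2, 36.6 and 38.7 CPM in GC colonies and 7.20 CPM in ESC, a log2 change of -1.24 ± 0.13. It shares 43.7% of its stretches with other genes, mostly Gm5662, whose values were 24.4, 37.8 and 30.5 CPM in M colonies, 61.0, 70.9 and 62.3 CPM in GC colonies and 9.82 CPM in ESC. Gm5662 and Gm2016 each had every M value below every GC value. Gm4027 and BB287469, each with 88% of its stretches in other genes, chiefly in one another, cannot be told apart with confidence, and their promoters were 99.6% identical over 259 bases. Gm21319, with the smallest change of the family, had 5.07, 8.77 and 6.496 CPM in M colonies, 10.3, 10.8 and 9.32 CPM in GC colonies and 1.31 CPM in ESC, at -0.58 ± 0.18, without a call. The short members Gm2022, Gm2075 and Gm21936 had 1.16 to 5.10 CPM in M colonies, 2.86 to 10.0 CPM in GC colonies and 0.503 to 0.871 CPM in ESC.

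Genes between these members on chromosome 12 that are no members themselves were looked at as well. Of 64 such genes 17 were tested, 4 were called lower in M than in GC colonies (8 with DESeq2), 0 higher, and their median log2 change was -0.95. Gm8332, the most abundant of the 4 called, had 11.0, 17.3 and 13.2 CPM in M colonies, 31.1, 37.8 and 28.1 CPM in GC colonies and 4.69 CPM in ESC (edgeR adjusted p = 8.31e-04 for M against GC colonies). The other 3 called were Gm1995, a processed pseudogene (edgeR adjusted p = 0.00142), Gm6803 (0.0240) and Gm8607, an unprocessed pseudogene (0.0187). Against ESC, 10 of 22 tested were higher and 0 lower, with a median of 2.21. These neighbours include further copies of the family and share stretches with members, as Gm8332 does with Gm8300. Eif1a itself stood at 220, 201 and 214 CPM in M colonies, 224, 213 and 218 CPM in GC colonies and 202 CPM in ESC, with overlapping colony groups (edgeR adjusted p = 0.769 for M against GC colonies).

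The Tcstv genes, between positions 119893388 and 120318178 of chromosome 13, summed to 70.0, 96.4 and 80.8 CPM in M colonies, 171, 182 and 159 CPM in GC colonies and 30.9 CPM in ESC. Here too the groups did not overlap, with log2 changes of -1.05 ± 0.10 (SE) for M over GC colonies and 1.94 ± 0.16 for the colonies over ESC when counted as 1 row. All 8 were called lower in M colonies and all 8 higher than in ESC. Gm21761 (ENSMUSG00000096175, chromosome 13 from 119912095 to 119929272, minus strand), the highest of all members per kilobase of transcript in M and in GC colonies, had 24.7, 36.1 and 30.0 CPM in M colonies, 61.1, 67.0 and 57.5 CPM in GC colonies and 11.5 CPM in ESC. It shares 28.4% of its 150-base stretches with Gm20767, so its own level is uncertain. BC147527 had the largest change of the family, at -1.45 ± 0.19, with 4.19, 4.55 and 3.45 CPM in M colonies, 12.3, 12.6 and 8.28 CPM in GC colonies and 1.78 CPM in ESC. Its GC colony 3 lay below the other GC colonies and still above every M colony. Tcstv1 and Tcstv3, the founding genes of the family, share no 150-base stretch with another gene. Tcstv1 had 4.71, 5.63 and 6.18 CPM in M colonies, 9.49, 10.4 and 9.60 CPM in GC colonies and 1.88 CPM in ESC. Tcstv3 had 5.10, 6.26 and 5.26 CPM in M colonies, 12.7, 12.7 and 12.0 CPM in GC colonies and 1.47 CPM in ESC. Both followed the order of the family, without overlap. Of the 15 other genes in this interval 4 were tested between M and GC colonies, and 0 were called by edgeR, DESeq2 or limma-voom, with 2 at an unadjusted p under 0.05. Of 5 tested against ESC, 1 was called, Gm21731, which was higher in GC colonies (edgeR adjusted p = 0.0228) and missed the threshold over the 6 colonies (0.0504).

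The Usp17l genes were lower in M colonies as a family too. They summed to 45.2, 64.0 and 60.0 CPM in M colonies, 89.8, 95.2 and 90.3 CPM in GC colonies and 15.8 CPM in ESC, without overlap, and as 1 row the log2 change was -0.71 ± 0.11 (SE) for M over GC colonies and 2.19 ± 0.17 for the colonies over ESC. Of 5 genes, 2 were called lower in M than in GC colonies (Usp17lc and Usp17le) and all 5 higher than in ESC. Usp17le had 17.8, 21.2 and 23.3 CPM in M colonies, 29.1, 31.9 and 29.2 CPM in GC colonies and 6.53 CPM in ESC, at -0.54 ± 0.11. Usp17lc, which changed most, had 10.9, 16.9 and 15.0 CPM in M colonies, 29.2, 29.0 and 27.8 CPM in GC colonies and 3.69 CPM in ESC, at -1.01 ± 0.14. It shares 29.4% of its 150-base stretches with other genes, mostly Usp17ld, so its own level is uncertain. Usp17lb stood out against ESC: its 7.09, 10.7 and 9.86 CPM in M colonies and 12.0, 14.7 and 15.0 CPM in GC colonies were 7.25 and 10.9 times the 1.27 CPM of ESC as means, the highest ratios of all tested members. These 5 genes are spread over a wide stretch of chromosome 7 from 103249737 to 104862667 among 118 other genes. Of the 9 of those tested, 0 were called between M and GC colonies by edgeR, DESeq2 or limma-voom, with 1 at an unadjusted p under 0.05. Of the 14 tested against ESC 2 were higher, the tripartite motif genes Trim12a (edgeR adjusted p = 0.0357) and Trim12c (5.63e-05).

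In the Eif1a-like and Tcstv families the gene with the highest mean level had nearly the same share of the family in every library. Other genes varied by differing amounts, not strictly in order of abundance. Among the Eif1a-like genes the abundant Gm5662 and Gm8300 varied 1.13 and 1.19 times. The rare Gm2075, Gm21936 and Gm2022 varied 1.78 to 2.10 times. Gm2016, at 11.3% to 17.8% of the Eif1a-like CPM, varied more (1.57 times) than the rarer Gm4027 (1.39 times). Among the Eif1a-like genes no member's mean share of the family differed by more than 1.81 percentage points between M and GC colonies (Gm2016), and among the Tcstv genes by more than 1.45 points (BC147527). Gm21761 made up 35.3%, 37.5% and 37.2% of Tcstv CPM in M colonies, 35.7%, 36.9% and 36.2% in GC colonies and 37.3% in ESC. Gm5039 made up 27.2%, 28.3% and 24.96% of the Eif1a-like CPM in M colonies, 26.9%, 26.4% and 27.7% in GC colonies and 27.5% in ESC. In both, the share was about the same in libraries whose family level differed several-fold, with a highest share over the lowest of 1.06 for Gm21761 and 1.13 for Gm5039 over the 7 libraries. The widest ranges were those of BC147527 among the Tcstv genes, from 4.27% to 7.19% of the family (1.68 times), and of Gm2022 among the Eif1a-like genes, from 2.15%, in ESC, to 4.52%, in M colony 3 (2.10 times). The ESC share of Gm2022 rests on 26 counts. Usp17lc differed between the colony groups, with 24.2%, 26.4% and 25.04% of Usp17l CPM in M colonies, 32.5%, 30.4% and 30.7% in GC colonies and 23.4% in ESC, so that M colonies and ESC lay on 1 side and GC colonies on the other. Gm21319 did so in the other direction within the Eif1a-like genes, with 5.17%, 5.68% and 5.76% in M colonies, 4.30%, 4.17% and 3.75% in GC colonies and 3.23% in ESC. Usp17lc and Gm21761 are among the 13 members that share over 25% of their stretches. Their shares of the family are thus uncertain, because reads could be split with Usp17ld and Gm20767.

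**Figure D3:**
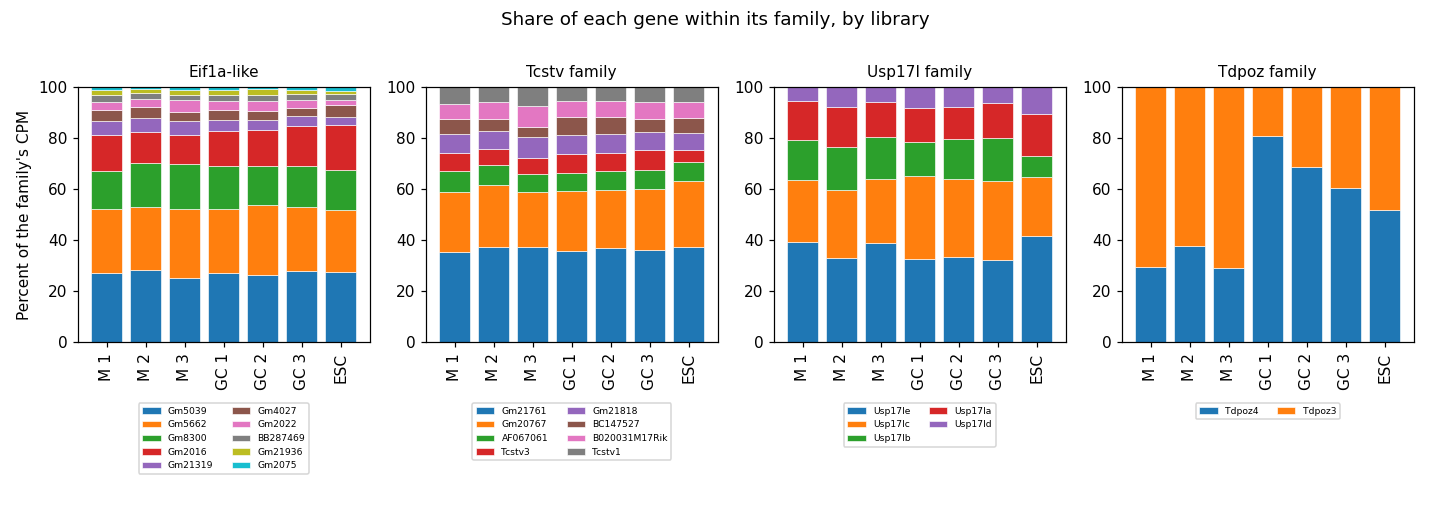
Share of each gene in the summed CPM of its family, in percent, for the 3 M colonies, the 3 GC colonies and ESC, for the 4 families with members on 1 chromosome. The largest parts of the Eif1a-like and Tcstv bars look alike in all 7 libraries, whereas Tdpoz4 makes up 28.9% to 37.5% of Tdpoz CPM in M colonies and 60.4% to 80.6% in GC colonies.

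Of the Tdpoz genes, Tdpoz4 was the exception in both level and proportion. Tdpoz4 (ENSMUSG00000060256, chromosome 3 from 93796398 to 93797510, plus strand) had 0.458, 0.539 and 0.412 CPM in M colonies, 4.61, 4.36 and 3.73 CPM in GC colonies and 0.536 CPM in ESC. The M colonies and ESC were thus at 1 low level and the GC colonies well above both, with the M mean at 0.111 of the GC mean and a log2 change of -3.16 ± 0.27 (SE), by far the largest among the members. Tdpoz3, on the same chromosome from 93826020 to 93827117, had 1.10, 0.898 and 1.01 CPM in M colonies, 1.11, 2.01 and 2.45 CPM in GC colonies and 0.503 CPM in ESC. Its highest M colony lay just under its lowest GC colony, and the log2 change of -0.88 ± 0.34 was not called. Tdpoz4 accordingly made up 29.4%, 37.5% and 28.9% of the pair's CPM in M colonies, 80.6%, 68.4% and 60.4% in GC colonies and 51.6% in ESC. Tdpoz4 was called lower in M colonies whichever colony was left out, and it was the only member, with Calcoco2, whose M mean lay below its ESC value among the 35 tested. It shares 6.54% of its 150-base stretches with other genes and Tdpoz3 33.4%. Tdpoz1 and Tdpoz2, relatives that are no members, were not called between M and GC colonies. Tdpoz1 had a mean of 1.22 CPM in M and 0.703 CPM in GC colonies, and Tdpoz2 0.604 and 0.859 CPM.

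Of the Pramel genes, a pair was expressed in all 7 libraries, 3 had 0 to 22 counts in each, and 1 (AA792892) was uneven between libraries. Gm12794 (ENSMUSG00000070890, chromosome 4 from 101940407 to 101943183, plus strand) had 10.1, 16.9 and 15.5 CPM in M colonies, 19.1, 21.5 and 22.8 CPM in GC colonies and 3.89 CPM in ESC, at -0.58 ± 0.16 (SE). It shares 34.6% of its 150-base stretches with Gm12800, so its own level is uncertain. B020004J07Rik had 2.54, 2.60 and 3.23 CPM in M colonies, 4.66, 4.48 and 4.33 CPM in GC colonies and 0.804 CPM in ESC, at -0.69 ± 0.20. In both genes the groups did not overlap, the difference between M and GC colonies was not called, and that to ESC was. Pramel7, which in mouse lowers DNA methylation in the inner cell mass, had 8, 20 and 12 counts in M colonies, 16, 20 and 2 in GC colonies and 3 in ESC, and its relative Pramel6 had 22, 5 and 2 counts in M colonies, 8, 12 and 8 in GC colonies and 0 in ESC. BC061212, whose stretches are all found in other genes as well, had 0 to 3 counts in M colonies, 0 to 4 in GC colonies and 2 in ESC. The colony groups overlapped in all 3. Pramel7 was tested and not called, with a log2 change of 0.12 ± 0.66, and Pramel6 and BC061212 did not pass the filter on low counts. AA792892 (chromosome 5 from 94339749 to 94385079) was unlike every other member, with 138 counts in M colony 1, 0 in M colonies 2 and 3, 8, 3 and 2 in GC colonies and 53 in ESC. Its RNA was thus found mainly in ESC, where the other members were low, and in the M colony in which most other members were lowest.

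Among the single genes, Duxf3 (ENSMUSG00000075046, chromosome 10 from 58229979 to 58232675, minus strand), the copy of Dux in this table, had the log2 change nearest 0. It had 2.29, 3.02 and 3.11 CPM in M colonies, 3.11, 3.57 and 5.05 CPM in GC colonies and 1.07 CPM in ESC, at -0.48 ± 0.24 (SE) for M over GC colonies, without a call, and 1.62 ± 0.38 for the colonies over ESC. M colony 3 and GC colony 1 had nearly the same level. Zfp352, a zinc finger gene commonly used to mark the 2-cell stage and without copies here, had 5.26, 9.52 and 6.88 CPM in M colonies, 11.8, 13.6 and 15.2 CPM in GC colonies and 2.14 CPM in ESC, at -0.91 ± 0.19. Its groups did not overlap, and its call between M and GC colonies was lost when GC colony 2, GC colony 3 or M colony 3 was left out. Sp110, a nuclear body protein gene of the interferon-inducible Sp100 family, had 4.89, 11.4 and 11.5 CPM in M colonies, 24.0, 25.7 and 23.1 CPM in GC colonies and 3.22 CPM in ESC. M colony 1 was thus close to ESC, and the log2 change of -1.39 ± 0.23 was the largest among the single genes.

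Gm4340, the most abundant of the single genes in M and in GC colonies, had 15.8, 19.7 and 16.1 CPM in M colonies, 34.8, 34.7 and 29.5 CPM in GC colonies and 6.17 CPM in ESC, at -0.94 ± 0.11 (SE), and 89.7% of its stretches recur in 6 other genes. Gm20765, which shares the most of them, had 0 counts in every library. How reads matching several copies were counted is not stated, so which copies the reads of Gm4340 came from is uncertain. Tmem92, a transmembrane protein gene with no shared stretch, had 11.9, 16.0 and 14.4 CPM in M colonies, 30.1, 34.2 and 28.2 CPM in GC colonies and 8.28 CPM in ESC, at -1.13 ± 0.12. Both had separate groups in the order ESC, M, GC. Arg2, the mitochondrial arginase, had 1.71, 2.07 and 1.93 CPM in M colonies, 3.38, 3.35 and 2.42 CPM in GC colonies and 0.871 CPM in ESC, at -0.68 ± 0.24, without a call between M and GC colonies. Calcoco2, an autophagy receptor made by many cell types, differed from the rest in its ESC level, with 12.2, 12.1 and 9.22 CPM in M colonies, 15.9, 18.9 and 18.5 CPM in GC colonies and 17.02 CPM in ESC. ESC lay within the GC range and above every M colony, and Calcoco2 was the 1 member called lower in M colonies than in ESC.

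Members were also set side by side by how much of their sequence recurs in other genes. The 10 tested members that share no 150-base stretch with another gene had a median log2 change of -0.95 for M over GC colonies, the 13 that share up to 25% had -0.69 and the 12 that share more had -1.01. Against ESC the medians were 1.94, 2.13 and 1.87. The 6 members with the CTGGAG and TATAAG pattern ran from -1.39 (Sp110) to -0.69 (B020004J07Rik), within the range of the other members. Among genes outside the list with that pattern, 8 were tested for M over GC colonies, with a median of -0.80. Of these 1 was called lower, Gm35974, with 1.01, 1.44 and 0.824 CPM in M colonies, 2.50, 3.02 and 2.57 CPM in GC colonies and 0.201 CPM in ESC (edgeR adjusted p = 0.0230), and 0 were called higher, against 2.27% and 1.70% of all genes. Gm12790, Gm12724 and Gm33248 were low, with means of 0.194 to 0.428 CPM in M and 0.538 to 0.775 CPM in GC colonies. Sgk1 and Arih2, the most abundant, had log2 changes of -0.085 and -0.086. Against ESC, 2 of 9 were higher (Gm21293 and Gm35974) and 1 lower (Arih2), against 8.76% and 7.56% of all genes. The outside genes with the pattern are not all independent of the members. Gm20765 and Gm12789 share stretches with the members Gm4340 and B020004J07Rik, and Gm21293 lies on chromosome 10, as Gm4340 does.

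**Figure D4:**
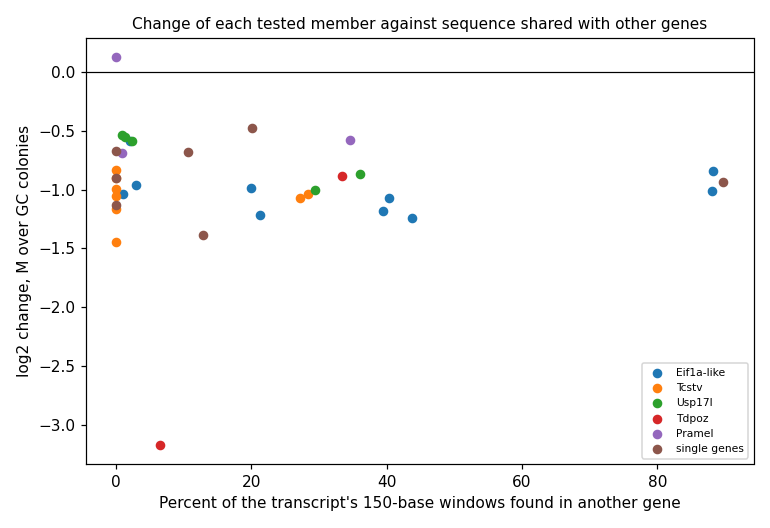
Log2 change of the 35 tested members for M over GC colonies, against the percent of each transcript's 150-base windows that also occur in another gene; colours are families. Members with no shared windows and members with most windows shared lie at similar changes; Tdpoz4 at -3.16 and Pramel7 at 0.12 are the lowest and the highest points.

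Within the M colonies most members had the same order of colonies. M colony 1 was the lowest of the 3 in 28 of the 35 tested members and M colony 2 the highest in 27. The share of all genes with this order was not computed. Counts of members here rest on the same 3 colonies, and members with shared sequence are not independent of each other. The coefficient of variation over colonies had a median of 18.9% in M and 8.29% in GC colonies over these members, against 10.5% and 10.2% over all genes tested, and it was larger in M than in GC colonies for 29 of the 35, against 50.9% of all genes. The 6 Zscan4 genes, the other marker family of the 2-cell-like state, had the same order, with 290, 447 and 333 CPM in M colonies, 596, 655 and 669 CPM in GC colonies and 91.4 CPM in ESC. The members' sum stood to the Zscan4 sum as 0.989, 0.918 and 1.01 in M colonies, 1.10, 1.07 and 0.977 in GC colonies and 1.46 in ESC. The ratio overlapped between M and GC colonies, and ESC lay above all of them. Calcoco2 alone gave 17.02 CPM of the members' sum in ESC, and the ratio without it was not computed.

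Primitive endoderm markers, of an extraembryonic lineage of the blastocyst, moved with the colony groups as well. Summed over 14 genes they were at 7191, 4526 and 7328 CPM in M colonies, 4810, 4121 and 4827 CPM in GC colonies and 1265 CPM in ESC. In this sum M colony 2, highest in most members, was the lowest M colony and lay within the GC range. For M over GC colonies all 14 log2 changes were positive, with a median of 0.58. By edgeR 3 were called higher (Dab2, Cubn and Foxq1) and 0 lower, where 1.70% of all genes were called higher. DESeq2 called 5 higher and limma-voom 3. In edgeR 13 had an unadjusted p under 0.05, against 16.6% of all genes. Against ESC all 14 markers were higher in the colonies, as most members were. The part of these markers in the members' levels was not tested. M colonies 2 and 3, the colonies with almost no Y-linked counts, were not the lowest in most members: without both, 26 members were called lower and the median log2 change was -1.27, with the spread then taken from the GC colonies alone.

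**Figure D5:**
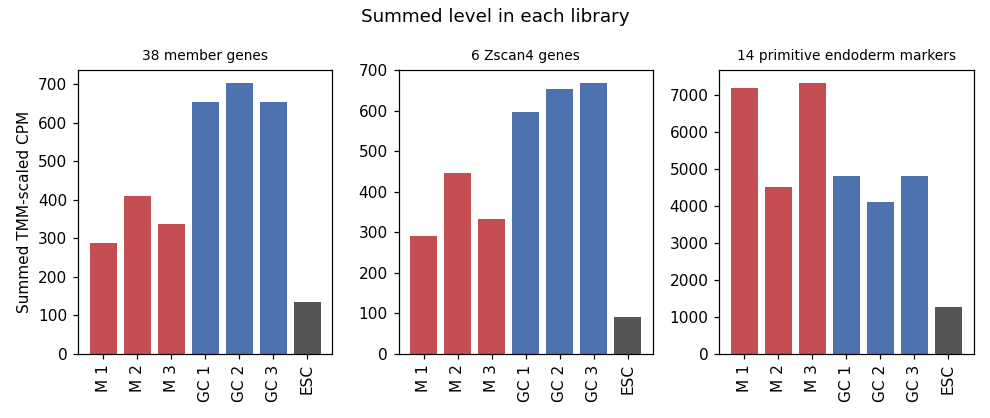
Summed TMM-scaled CPM of the 38 members, the 6 Zscan4 genes and 14 primitive endoderm markers in each library, with M colonies in red, GC colonies in blue and ESC in grey. Members and Zscan4 genes both run from ESC at the bottom through M colonies to GC colonies, with M colony 2 the highest M colony; the primitive endoderm sum is lowest in ESC and, among M colonies, lowest in colony 2.

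Other genes of the cleavage-stage program and relatives of the member families came from a list of 43, of which 39 were in the table. Of 20 tested, 3 were called lower in M than in GC colonies and 0 higher, with a median log2 change of -0.59, and 11 had an unadjusted p under 0.05, against 16.6% of all genes. The 3 became 6 without M colony 2, 7 with DESeq2 and 8 without the low-count filter. Pramef25, a leucine-rich repeat gene of the Pramel type, had 13.5, 18.8 and 16.7 CPM in M colonies, 29.5, 36.7 and 33.7 CPM in GC colonies and 4.09 CPM in ESC, at -1.03 ± 0.13 (SE, edgeR adjusted p = 6.88e-04). Gm13119 had 8.83, 12.1 and 12.1 CPM in M colonies, 22.4, 21.7 and 20.9 CPM in GC colonies and 4.66 CPM in ESC, at -0.98 ± 0.13 (edgeR adjusted p = 0.00126). Both kept this order without overlap, as most members did, and both stayed called in 6 of 6 leave-outs of a colony. The third was Obox6, a homeobox gene, at 0.122 to 0.599 CPM in M colonies, 1.00 to 1.55 CPM in GC colonies and 0.871 CPM in ESC (edgeR adjusted p = 0.0432). Pramef8 overlapped between the groups at 28.1 to 30.7 CPM in M colonies, 27.5 to 30.7 CPM in GC colonies and 29.6 CPM in ESC. Against ESC, 12 of 24 were higher and 0 lower, with a median of 1.76.

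Factors that act upstream of these genes were present in all libraries. Of 4 activators tested, Dppa2, which with Dppa4 binds the Dux locus, and Nelfa, a subunit of the negative elongation factor complex, were called lower in M colonies. Dppa2 had 108, 117 and 109 CPM in M colonies, 141, 151 and 130 CPM in GC colonies and 98.3 CPM in ESC, at -0.34 ± 0.07 (SE, edgeR adjusted p = 0.0172). Nelfa had 113, 136 and 132 CPM in M colonies, 161, 170 and 152 CPM in GC colonies and 117 CPM in ESC, at -0.35 ± 0.08 (edgeR adjusted p = 0.0274). The colony groups did not overlap in either gene, yet each stayed called in only 2 of 6 leave-outs, with adjusted p up to 0.156 and 0.197 without GC colony 2. The other 2 activators were not called between M and GC colonies, where 2.27% of all genes were called lower. In these 2 every M colony lay below every GC colony as well. All 4 had an unadjusted p under 0.05 in edgeR, against 16.6% of all genes. Trp53, the most abundant of the 4, had 332, 330 and 311 CPM in M colonies, 386, 373 and 354 CPM in GC colonies and 489 CPM in ESC. Against ESC, 1 activator was called higher in the colonies (Dppa2) and 1 lower (Trp53, edgeR adjusted p = 4.59e-04). Of 19 repressors, 0 were called lower in M than in GC colonies and 1 higher, against 2.27% and 1.70% of all genes. DESeq2 called 0 lower and 0 higher, and limma-voom 1 lower and 1 higher. The 1 called higher by edgeR was Ehmt2, the histone H3K9 methyltransferase G9a, with 306, 472 and 491 CPM in M colonies, 288, 289 and 267 CPM in GC colonies and 257 CPM in ESC, at 0.59 ± 0.13 (edgeR adjusted p = 0.0276). M colony 1, the lowest M colony for most members, was close to the GC colonies in Ehmt2, and the gene stayed called in 1 of 6 leave-outs, with adjusted p up to 0.163. Trim28, the corepressor that silences endogenous retroviruses, had 1942, 1864 and 1817 CPM in M colonies, 2178, 2232 and 2006 CPM in GC colonies and 2092 CPM in ESC, without a call (edgeR adjusted p = 0.0679).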

How the data were processed

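The authors deposited unnormalized whole-number counts per gene for 3 M colonies, 3 GC colonies and 1 ESC culture, from poly-A RNA. The submitters' processing notes name STAR 2.7.10a, featureCounts 2.0.6 and DESeq2, and the build mm10. Whether reads were counted by strand, on which the labels disagree, and how reads matching several copies were counted are not stated. Among counts of 1 to 49, 68.5% to 72.2% were even by library, against 49.5% to 50.9% at 1000 or more. Whether both mates of a pair were counted, which would overstate fragments, was not tested.

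Gene names and positions came from GENCODE M21 (54809 of 54838 genes matched). Genes were filtered with filterByExpr, given TMM factors and fitted in edgeR 4.0.16 (R 4.3.3) for its quasi-likelihood test, two-sided and Benjamini-Hochberg adjusted over all genes tested, with a threshold of 0.05: the 6 colonies for M against GC, all 7 libraries for comparisons with ESC. Families were connected blastn hits (BLAST+ 2.17.0, e-value 1e-20, at least 150 aligned bases). An SE is the log2 change over the square root of F. The fit was tested on simulated counts. Alternatives were RLE or no scaling factors, no filter, DESeq2 1.42.0, limma-voom 3.58.1, the colony number as a block, each colony left out, M colonies 2 and 3 left out, halved counts and family sums.

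The members, lists and tests were chosen with earlier results of these data known. All members could be named, in full those of each family with the highest mean CPM and the largest change, and from each list up to 4 genes, the 2 most abundant and the 2 with the smallest p. Genes outside that rule (Dab2, Cubn, Foxq1, Obox6, Tdpoz1, Tdpoz2, Ms4a1, Gm21731, the chromosome 12 and 7 neighbours and the genes with a promoter pattern) and the other members given in full were chosen after their values were seen. Colonies with the same number were not shown to be paired, as their deviations correlated at 0.073, 0.075 and 0.164.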

Additional observations from a re-analysis of the deposited data

How the results depend on the processing

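Of the 35 tested members, 34 kept their direction between M and GC colonies under every alternative run; Pramel7 ran from -0.36 (without GC colony 3) to 0.66 over single leave-outs, with -0.26 lacking M colony 2, and was -0.61 lacking M colonies 2 and 3 (the cause was not tested). The 25 members called lower became 29 with the replicate block, 30 without the low-count filter, 31 with DESeq2, 26 with limma-voom and 10 of the 12 rows left after family sums, a smaller number by construction, and ran from 15 to 30 when 1 colony was left out. The median over all 35 tested members, -0.97, ran from -0.84 to -1.14 over those leave-outs and was -1.27 without M colonies 2 and 3. The 32 members higher than in ESC, 33 for GC colonies alone and 28 for M colonies alone became 11, 11 and 9 rows with family sums; limma-voom gave 28, 32 and 23. Halving all counts left 25 members lower in M colonies and 32 higher than in ESC. Of all genes, 721 were called between M and GC colonies, 1110 with DESeq2, 1318 without the filter, 963 with the block, 373 without M colonies 2 and 3, and 244 (without GC colony 2) to 814 over the leave-outs, with 412 without GC colony 1 and 270 without M colony 3. The 3 other cleavage-stage genes called lower became 8 without the filter, 7 with DESeq2, 7 with the block and 2 to 6 over the leave-outs, the 6 without M colony 2. Eif1a changed sign without M colonies 2 and 3 (0.0063), Pramef8 over single leave-outs (-0.023 to 0.067, with -0.016 lacking GC colony 1), without M colonies 2 and 3 (-0.037) and, against ESC, with no scaling factor (0.041), as did Trim28 against ESC (0.0075). Same-numbered colonies were not shown to be paired, though each correlated best with its own number. Low counts kept Pramel6, BC061212 and AA792892 out of the test between M and GC colonies, and the 13 members that share over 25% of their stretches have uncertain counts of their own.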
